A study of Homo sapiens with 9 samples.

Results

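EPH receptors are receptor tyrosine kinases of the cell surface, and ephrins are the membrane-bound ligands through which neighbouring cells engage them. Transcripts of 10 of these genes were followed in the human breast cancer line MDA-MB231, an established cell line, after inhibition of the kinase MEK or of metalloproteinases. The genes were chosen by name, with earlier results of these data known. They are 7 receptors (EPHA1, EPHA2, EPHA4, EPHB2, EPHB3, EPHB4 and EPHB6) and 3 ephrins (EFNA1, EFNB1 and EFNB2). The platform annotation used here paired 9 of the 10 with at least 1 probe set, 24 probe sets in all, out of 18132 genes and 49395 probe sets. EPHB2 had none and was not analysed here. For each gene the probe set of highest mean signal stands for the gene, and the others of each member are described beside it.

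RNA came from 9 cultures of this line, each on 1 Affymetrix PrimeView array. Cells were plated at 70% confluency in medium with 10% serum and given fresh medium with an agent on the next day. They were lysed after 24 h, in 4 cultures with 0.1% DMSO (control), 2 with 10 µM BB94 and 3 with 3 µM PD325901. BB94, or batimastat, blocks many metalloproteinases. PD325901 blocks MEK, which phosphorylates and so activates ERK. Both came from stocks in DMSO, whose final content in the inhibitor cultures is not stated in the labels. Cultures are termed biological replicates of a single cell line, without saying how far apart they were grown, and p-values measure the spread between them. Both inhibitor groups are compared with the same 4 control arrays.

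Ephrins of the A class are held in the membrane by a lipid anchor and mostly bind EPHA receptors, whereas ephrins of the B class span the membrane and mostly bind EPHB receptors. Binding sends a signal into both cells, and it governs cell repulsion, adhesion and tissue boundaries. EPHA2 is often abundant in aggressive breast cancer cells, where it can act without its ligand ephrin-A1, and both receptors and ephrins can be cut from the cell surface by metalloproteinases such as ADAM10. RNA levels, which are what these arrays read, do not show such cleavage.

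Values are log2 signals, so a difference of 1 is a doubling, and a gene was called changed at a limma p-value, adjusted over all 18132 genes, under 0.05. The highest of 23 background probe sets, between 6.02 and 6.501 on the 9 arrays, served as background level. It is a strict limit, and a gene below it need not be absent. Of the markers of this mesenchymal, triple-negative line, VIM, CD44 and AXL were above background on all arrays and ESR1, PGR and CDH1 on none, although CDH1 was called higher under PD325901 (log2 1.39) within that range. None of 4 markers of lymphoid cells or hepatocytes (PTPRC, CD3E, CD79A and ALB) was above background on any array. All 14 listed ERK output genes fell under PD325901, with a median log2 change of -2.83. The 3 largest log2 changes were those of SPRY4 (at least 25.4-fold), ETV4 (at least 9.53-fold) and ETV5 (20.4-fold). ETV4 was below background on all 3 PD325901 arrays, so its place in that order is not settled. Measured falls of DUSP6 (16.2-fold), EGR1 (12.9-fold) and CCND1 (9.78-fold) exceeded its bound. BB94 changed 0 of the 14 by the limma test, where 1.58% of all genes were called, and 1 had an unadjusted p under 0.05. The second principal component, with 10.2% of the variance, held control replicates 3 and 4 at -18.5 and -23.9, and the other controls at 25.0 and 6.43. The 3' minus 5' signal of ACTB, a sign of RNA integrity, was 3.46 and 2.96 in control replicates 3 and 4 and 3.50 to 4.22 on the other arrays. Its part in the results was not tested. In bulk RNA, fewer expressing cells and less RNA per cell cannot be told apart.

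PD325901 moved 4 of the 9 genes, EPHA2 and EFNB2 down and EFNA1 and EPHB4 up, and BB94 moved EFNB2 alone, upward. The count under PD325901 is 44.4% of the members, against 35.1% of all genes called in that comparison, 22.8% higher and 12.3% lower. Under BB94 it is 11.1%, or 1 of 9, against 1.58% of all genes (0.491% called higher and 1.09% lower), and 3 members had an unadjusted p under 0.05. In the direct comparison of PD325901 with BB94, 4 of 9 were called, EFNA1 and EPHA4 higher and EPHA2 and EFNB2 lower, against 31.2% of all genes, 21.0% higher and 10.2% lower. The median log2 change of the members was 0.04 under PD325901 and -0.10 under BB94, against 0.08 and -0.02 for all genes.

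**Figure D1:**
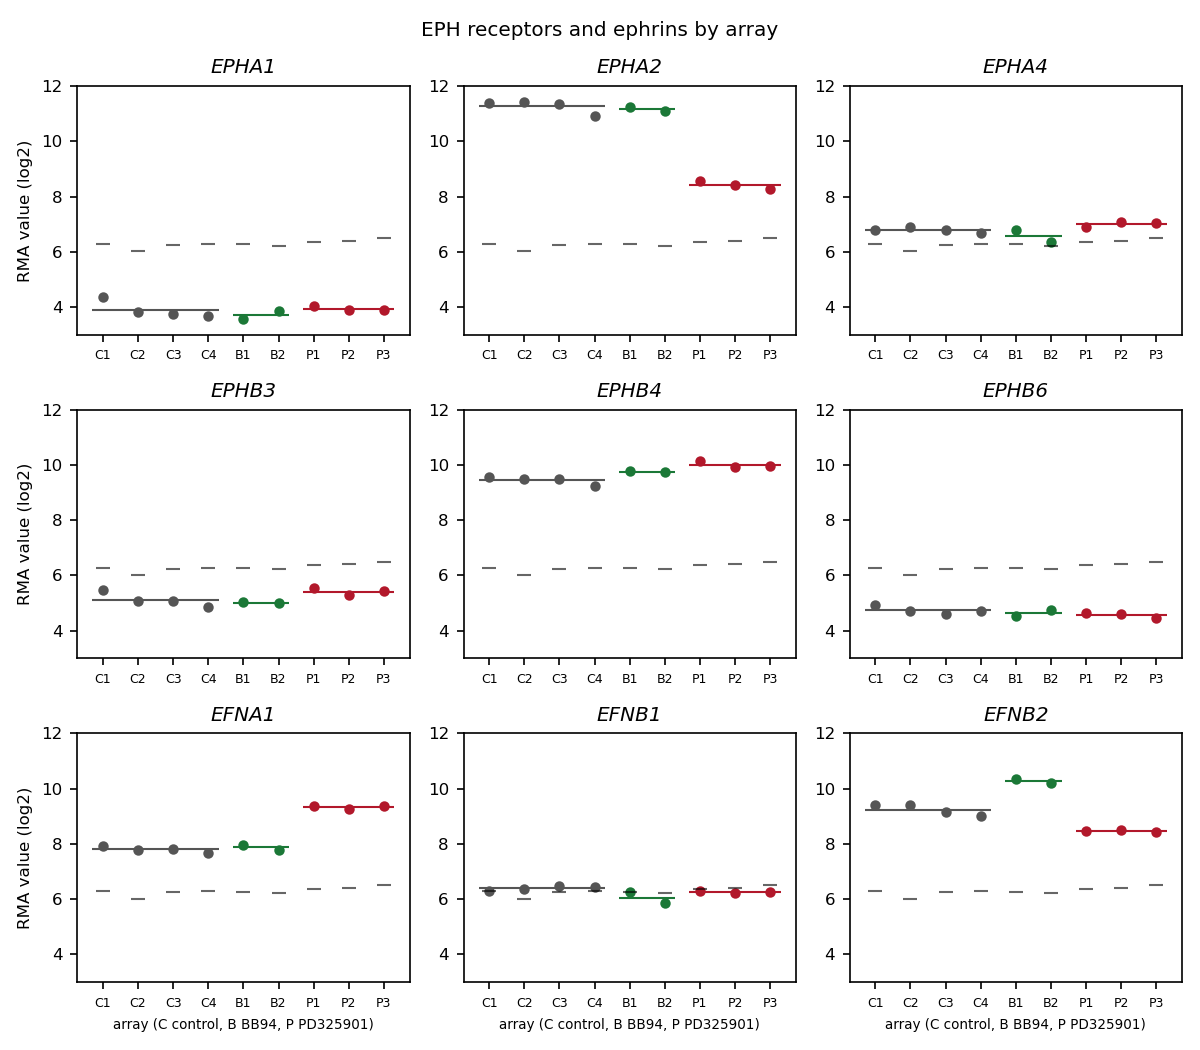
Log2 signal of each member on the 9 arrays (C, control; B, BB94; P, PD325901), with horizontal lines at group means and short dashes at the background level of each array. EPHA2 lies near 8.42 in the PD325901 arrays and near 11.27 in control, and EFNB2 lies highest under BB94 and lowest under PD325901.

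The start regions of the 4 called genes are shown because their transcripts moved in different directions under one inhibitor. Each is the 250 bases before the RefSeq start of the gene (build GRCh38.p14, written 5′ to 3′ on the strand of the gene), and RefSeq promoters matched all 10 genes. Capitals mark any match, on either strand, to 4 motifs with no overlaps between them: TGANTCA for AP-1, CCGGAA for ETS factors, TGACGTCA for CREB and ATF factors, and TGGGAA for RBPJ. The regions are chr1:16156070-16156319 on the minus strand for EPHA2, chr1:155127626-155127875 on the plus strand for EFNA1, chr13:106535663-106535912 on the minus strand for EFNB2 and chr7:100827524-100827773 on the minus strand for EPHB4.
EPHA2: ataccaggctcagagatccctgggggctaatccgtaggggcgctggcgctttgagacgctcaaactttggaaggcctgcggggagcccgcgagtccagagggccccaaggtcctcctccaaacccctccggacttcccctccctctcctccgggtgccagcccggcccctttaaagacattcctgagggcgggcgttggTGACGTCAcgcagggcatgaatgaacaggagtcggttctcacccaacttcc
EFNA1: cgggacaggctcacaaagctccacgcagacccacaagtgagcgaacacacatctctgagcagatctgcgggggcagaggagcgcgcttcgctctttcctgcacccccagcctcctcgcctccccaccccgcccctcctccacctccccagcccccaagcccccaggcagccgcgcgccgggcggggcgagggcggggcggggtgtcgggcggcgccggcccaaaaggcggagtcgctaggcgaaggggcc
EFNB2: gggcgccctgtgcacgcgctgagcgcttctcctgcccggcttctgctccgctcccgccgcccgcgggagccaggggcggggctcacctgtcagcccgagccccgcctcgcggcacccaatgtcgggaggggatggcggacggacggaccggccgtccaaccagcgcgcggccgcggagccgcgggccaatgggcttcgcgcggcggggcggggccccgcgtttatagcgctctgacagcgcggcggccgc
EPHB4: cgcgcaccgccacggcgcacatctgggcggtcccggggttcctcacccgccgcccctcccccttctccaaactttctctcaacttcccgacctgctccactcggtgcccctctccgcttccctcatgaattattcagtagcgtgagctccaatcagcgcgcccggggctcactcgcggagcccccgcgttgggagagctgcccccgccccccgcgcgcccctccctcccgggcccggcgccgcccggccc
EPHA2 held 1 match, to the CREB and ATF motif, which begins 51 bases before the start, and 1.65% of 35116 RefSeq promoter windows of the same length hold one. The EFNA1, EFNB2 and EPHB4 windows held none of the 4 motifs. The motifs occur in 6.57% (AP-1), 14.5% (ETS) and 20.8% (RBPJ) of all windows. A match or its lack is a description of these letters, and no binding was measured. The windows of the 4 genes were rich in G and C, from 63.2% in EPHA2 to 78.4% in EFNB2.

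EPHA2 showed the largest change of the receptors. This gene encodes the main receptor of ephrin-A1. Its signal was 11.37, 11.43, 11.35 and 10.92 for control, 11.25 and 11.10 for BB94 and 8.57, 8.42 and 8.28 for PD325901. All PD325901 arrays lay below the other 6, and the BB94 arrays lay within the range of the controls. The control mean was 11.27 ± 0.23 (SD, n = 4) and the PD325901 mean 8.42 ± 0.14 (SD, n = 3), which is 7.20-fold lower (log2 -2.85, SE 0.13, limma adjusted p = 9.4e-08). Among 18132 genes its change ranked 21st from the lowest. BB94 left it at 11.18 ± 0.11 (SD, n = 2), a log2 change of -0.09 with a 95% interval of -0.42 to 0.23 (limma adjusted p = 0.927). Tested directly, EPHA2 was 6.76-fold lower under PD325901 than under BB94 (limma adjusted p = 5.8e-07).

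The second EPHA2 probe set moved the same way. It read 7.92, 7.89, 8.27 and 7.58 in control, 7.85 and 7.75 under BB94 and 6.01, 5.41 and 5.71 under PD325901. All 3 treated values were below background, so the fall is at least 2.82-fold, with a limma adjusted p over all probe sets of 2.9e-06. Both probe sets thus gave a fall under PD325901 and values within the control range under BB94.

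EPHB4, the receptor of ephrin-B2, rose modestly. Its control values were 9.55, 9.48, 9.51 and 9.22, its BB94 values 9.79 and 9.73 and its PD325901 values 10.13, 9.93 and 9.98. The 3 groups did not overlap, with control lowest and PD325901 highest. The rise under PD325901 was 1.49-fold, from 9.44 ± 0.15 (SD, n = 4) to 10.01 ± 0.11 (SD, n = 3; log2 0.57, SE 0.10, limma adjusted p = 9.3e-04). The BB94 difference of 0.32 (95% interval 0.07 to 0.57) did not pass the test (limma adjusted p = 0.284), and neither did the difference of 0.25 between the inhibitors (95% interval -0.01 to 0.51, adjusted p = 0.139). The other 4 probe sets of EPHB4 stayed below background on every array. Taking the mean of all 5 ended the call of the rise under PD325901 (log2 0.24), with limma adjusted p-values of 1.5e-04 to 0.0663 over 20 alternatives, this one the highest.

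EPHA4, a receptor that binds ephrins of both classes, did not pass the test against control with either inhibitor. It read 6.79, 6.90, 6.79 and 6.70 in control, 6.77 and 6.36 under BB94 and 6.89, 7.06 and 7.03 under PD325901. The PD325901 values overlapped those of control and lay above both BB94 values. The change was 0.20 under PD325901 (95% interval -0.04 to 0.44) and -0.23 under BB94 (95% interval -0.50 to 0.04). The direct difference between the inhibitors, 0.43 (SE 0.13), was called (limma adjusted p = 0.0269) on this probe set and on none of its other 3. Without BB94 replicate 2 it was 0.22 (adjusted p = 0.301), and without PD325901 replicate 2 or 3 it was not called either (adjusted p = 0.0875 and 0.075). It also lost its call with centred arrays, cyclic loess, the mean of probe sets and the replicate block, with limma adjusted p from 0.0068 to 0.533 over 20 alternatives.

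The other 3 receptors stayed below background on every array. EPHA1, an early-described receptor of the family, ranged from 3.56 to 4.35 over the 9 arrays, EPHB3 from 4.87 to 5.55 and EPHB6, which lacks kinase activity, from 4.47 to 4.94. None was called in the 3 comparisons as deposited, and no fold is given for values at this level. The second EPHA1 probe set was also below background and not called (log2 -0.22 under PD325901 and -0.28 under BB94). EPHB3 came nearest to a call against control, with a change of 0.29 under PD325901 (95% interval 0.00 to 0.58, limma adjusted p = 0.114), and it was called without control replicate 1 (0.41, adjusted p = 0.0075). Array weights (0.26, adjusted p = 0.0412) and the use of only controls 3 and 4 (0.44, adjusted p = 0.00935) gave a call as well, while controls 1 and 2 did not (0.14, adjusted p = 0.446). Against BB94, EPHB3 differed by 0.41 under PD325901 (limma adjusted p = 0.0745), and 7 of 19 alternatives gave a call, among them the fits without control replicate 1 (adjusted p = 0.0148) and without control replicate 4 (0.0454). The replicate block was another (0.43, adjusted p = 0.0278).

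**Figure D2:**
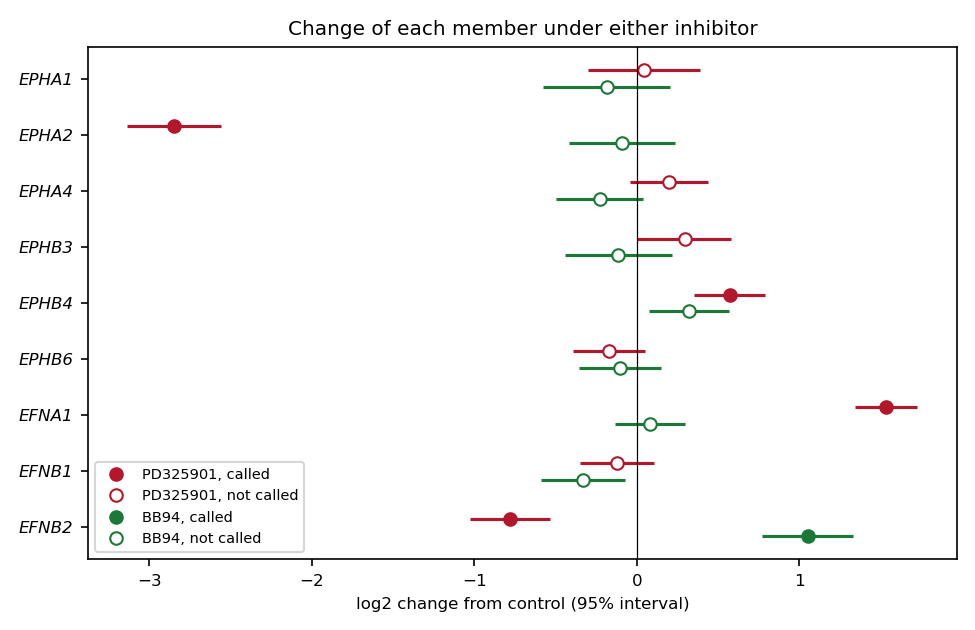
Log2 change of each member from control under PD325901 (red) and BB94 (green), with 95% intervals from limma over all 9 arrays. Filled points were called at an adjusted p under 0.05. EPHA2 at -2.85 and EFNA1 at 1.54 stand at either end under PD325901, and EFNB2 lies on opposite sides of 0 under both inhibitors.

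Of the ephrins, EFNA1 rose under PD325901 while its receptor gene EPHA2 fell. Signals of EFNA1, which encodes ephrin-A1, were 7.92, 7.77, 7.82 and 7.69 in control, 7.97 and 7.79 under BB94 and 9.37, 9.26 and 9.38 under PD325901. The PD325901 arrays lay above all the others, which overlapped. The rise was 2.90-fold, from 7.80 ± 0.10 (SD, n = 4) to 9.34 ± 0.07 (SD, n = 3; log2 1.54, SE 0.09, limma adjusted p = 3.7e-07). Under BB94 the change was 0.08 (95% interval -0.14 to 0.30, limma adjusted p = 0.889). The direct difference between PD325901 and BB94 was 1.46 (SE 0.10, limma adjusted p = 2.9e-06).

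The other EFNA1 probe set was below background in control, at 5.59 to 6.05, and above it in all 3 PD325901 arrays, at 6.53, 6.76 and 6.89. That rise is at least 1.43-fold (limma adjusted p over all probe sets = 2.1e-04). Its BB94 values, 5.63 and 5.38, overlapped those of control.

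EFNB2 was the member that the inhibitors moved in opposite directions. It encodes ephrin-B2, the ligand of EPHB4. It read 9.42, 9.40, 9.15 and 9.004 in control, 10.37 and 10.22 under BB94 and 8.48, 8.49 and 8.42 under PD325901. No 2 groups overlapped. The control mean was 9.24 ± 0.20 (SD, n = 4) and the BB94 mean 10.29 ± 0.10 (SD, n = 2), a 2.07-fold rise (log2 1.05, SE 0.12, limma adjusted p = 0.0023). That rise ranked 29th from the highest of 18132 genes. Under PD325901 it fell 1.72-fold to 8.46 ± 0.04 (SD, n = 3; log2 -0.78, SE 0.11, limma adjusted p = 2.4e-04). PD325901 and BB94 arrays differed by 3.56-fold (log2 -1.83, SE 0.13, limma adjusted p = 3.1e-06).

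The size of the EFNB2 changes moved with the controls used, of which 3 and 4 read lower than 1 and 2. With controls 1 and 2 alone the log2 change was 0.88 under BB94 and -0.95 under PD325901, and with controls 3 and 4 alone it was 1.22 and -0.62. All 4 values were called. Of the 4 EFNB2 probe sets, 2 were called higher under BB94 and 2 lower under PD325901. The second of these read 6.30 to 6.55 in control and 7.20 and 6.92 under BB94, a 1.54-fold rise (limma adjusted p over all probe sets = 0.0358). Under PD325901 it was below background, at 5.59 to 5.86, a fall of at least 1.01-fold. The other 2 were below background in control, and the mean of all 4 gave smaller changes of 0.60 under BB94 (adjusted p = 0.0281, range 6.6e-04 to 0.042 over 20 alternatives) and -0.48 under PD325901 (adjusted p = 0.0035, range 5.5e-06 to 0.0035).

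EFNB1, which encodes another transmembrane ephrin, lay at the background level. Its values were 6.30, 6.37, 6.46 and 6.43 in control, 6.27 and 5.84 under BB94 and 6.30, 6.24 and 6.26 under PD325901. All control arrays, 1 BB94 array and no PD325901 array were above background. Of the 3 EFNB1 probe sets only this 1 was above background on any array, and none was called. The changes, -0.33 under BB94 (95% interval -0.59 to -0.08) and -0.12 under PD325901 (95% interval -0.35 to 0.10), did not pass the test (limma adjusted p = 0.286 and 0.413), although both BB94 values lay below all control values.

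**Figure D3:**
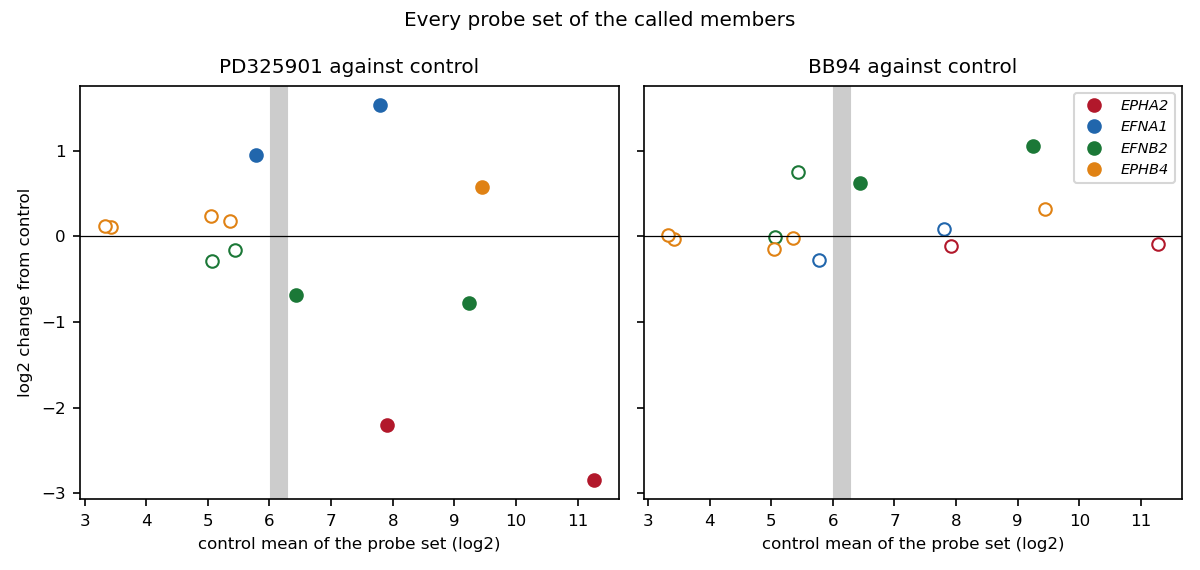
Log2 change of every probe set of EPHA2, EFNA1, EFNB2 and EPHB4 against its mean signal in control, under PD325901 (left) and BB94 (right). Filled points were called over all probe sets, and the grey band spans the background levels of the control arrays. The 2 called probe sets of EFNB2 lie above 0 on the right and below 0 on the left.

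The rest of the family, 12 measured genes, moved upward under PD325901 where it was called. PD325901 raised 6 of the 12 and lowered 0 by the limma test, against 22.8% and 12.3% of all genes, and 7 were higher and 0 lower at an unadjusted p under 0.05. The median change was 0.31, against 0.08 for all genes. BB94 changed 0 of the 12 by the limma test, where 1.58% of all genes were called. At an unadjusted p under 0.05, 1 was higher and 3 lower. Under 7 of 20 alternatives 1 was called lower, among them the fits without control replicate 1 or 4. Of the 12 genes, 8 were below background on every array, and those calls lower under BB94 fell among these 8. Among these 8, EPHA3 and EPHA5 were called under PD325901, with changes of 0.47 and 0.64, and no fold is given for them. EPHA3 lost its call with the mean of probe sets and with centred arrays (adjusted p = 0.313 and 0.164), and EPHA5 without PD325901 replicate 1 and with controls 1 and 2 only (adjusted p = 0.0562 and 0.0521). EFNB3, a further transmembrane ephrin gene, read 8.69, 8.76, 8.73 and 8.53 in control, 8.78 and 8.57 under BB94 and 10.28, 10.33 and 10.23 under PD325901. The rise was 3.04-fold (log2 1.60, SE 0.09, limma adjusted p = 3.4e-07), and the BB94 values overlapped those of control. EFNA3 averaged 7.28 ± 0.10 (SD, n = 4) in control and 8.07 ± 0.16 under PD325901 (SD, n = 3), a 1.74-fold rise (limma adjusted p = 1.1e-04), while both BB94 values, 7.02 and 6.86, lay below control without passing the test (log2 -0.34, limma adjusted p = 0.257). EFNA4 rose 1.54-fold (limma adjusted p = 4.6e-04) and EFNA5 1.21-fold (limma adjusted p = 0.0381), both chosen after their values were seen. A second EFNA5 probe set, above background on all arrays, was called higher (log2 0.37, limma adjusted p over all probe sets = 0.0045). The third, near background, was not called (log2 -0.31, limma adjusted p over all probe sets = 0.211). EFNA5 lost its call under 13 of 20 alternatives, with limma adjusted p up to 0.854 and changes of 0.03 to 0.39 (0.17 with controls 1 and 2 alone and 0.39 with controls 3 and 4 alone). Among them were the fits without control replicate 2, 3 or 4, without either BB94 array and without PD325901 replicate 2 or 3.

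By class, 4 of 5 measured A-class ephrin genes (EFNA1, EFNA3, EFNA4 and EFNA5) were called higher under PD325901, and the fifth, EFNA2, was below background throughout. In the B class EFNB3 was higher, EFNB2 lower and EFNB1 not called. Across all 8 ephrin genes, 5 rose and 1 fell, where 22.8% of all genes were called higher and 12.3% lower. EFNA1, EFNA3, EFNA4 and EFNB3 kept their calls under all 20 alternatives, centred arrays included, where EFNA5 had a change of 0.03 and was not called. Of the 13 measured receptor genes, 10 were below background on every array, and the 3 others were EPHA2, which fell, EPHB4, which rose, and EPHA4, which was not called. EPHA2 was the only one of these 13 called lower, and the 10 below background carry little information.

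**Figure D4:**
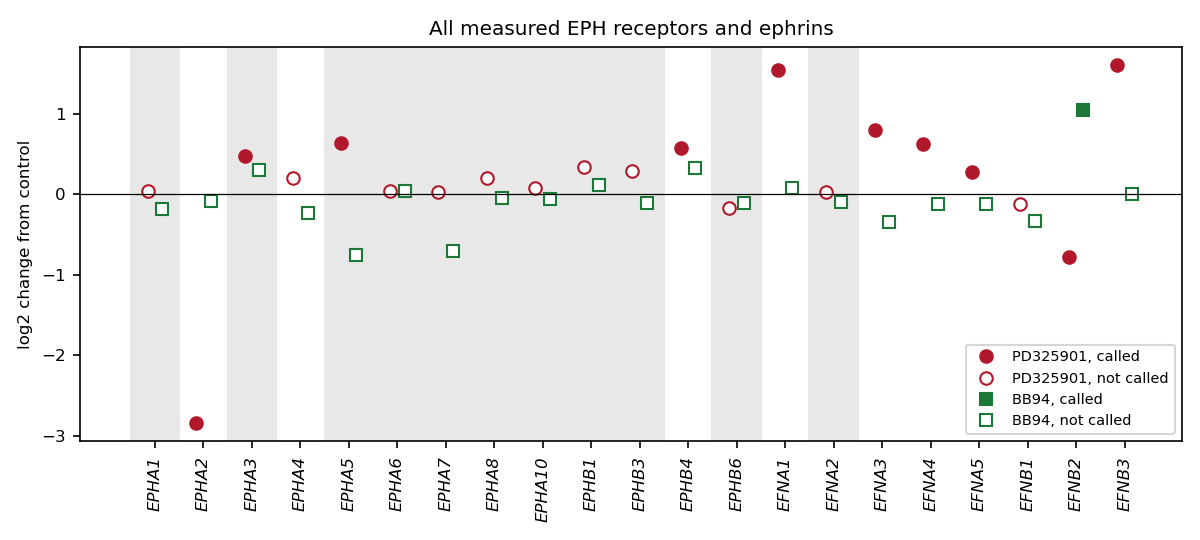
Log2 change from control of the 21 measured EPH receptor and ephrin genes under PD325901 (red circles) and BB94 (green squares), filled where called. Grey columns mark genes below background on all 9 arrays. The PD325901 changes of ephrin genes lie mostly above 0, with EFNB2 at -0.78 the exception among those called.

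Adaptors and effectors of the pathway, which carry signals of receptors and ephrins to the cytoskeleton, moved in both directions. Of 29 measured, PD325901 raised 9 and lowered 5 and left 15 not called, with a median of 0.15, where 22.8% of all genes were called higher and 12.3% lower. The number lowered was 9 with centred arrays and 3 without PD325901 replicate 1. TIAM1, an activator of the GTPase Rac, read 11.13 to 11.27 in control, 11.38 and 11.29 under BB94 and 9.38 to 9.48 under PD325901. It fell 3.43-fold (log2 -1.78, SE 0.08, limma adjusted p = 6.2e-08). NGEF, which encodes the EPHA-bound exchange factor ephexin, rose 2.30-fold (log2 1.20, SE 0.10, limma adjusted p = 5.1e-06), with values of 6.998 to 7.23 in control and 8.25 to 8.48 under PD325901. PTPN13, a phosphatase that binds ephrin-B proteins, rose 1.81-fold (log2 0.85, limma adjusted p = 0.0016), by 0.60 with controls 1 and 2 alone and by 1.10 with controls 3 and 4 alone. BB94 changed 0 of the 29 by the limma test, where 1.58% of all genes were called. At an unadjusted p under 0.05, 1 was higher and 2 lower. With controls 3 and 4 alone, 2 were called higher. The BB94 values of TIAM1 lay above those of control, by 0.13 on the log2 scale (limma adjusted p = 0.708).

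Of 9 measured proteases known to cut EPH receptors or ephrins, PD325901 raised 3 and lowered 1, against 22.8% and 12.3% of all genes. The number raised was 1 with centred arrays and with the mean of probe sets, and the number lowered was 2 under 9 of 20 alternatives, among them the fits without control replicate 1 and without PD325901 replicate 1. MMP9, a secreted gelatinase, fell 2.91-fold (log2 -1.54, SE 0.14, limma adjusted p = 1.0e-05), with values of 8.17 to 8.58 in control and 6.69 to 6.99 under PD325901. NCSTN, a subunit of gamma-secretase, rose 1.67-fold (log2 0.74, limma adjusted p = 0.0039), by 0.58 with controls 1 and 2 alone and by 0.90 with controls 3 and 4 alone. ADAM10 rose 1.31-fold (limma adjusted p = 0.0051), a call that centred arrays (adjusted p = 0.302) and the mean of probe sets (0.081) ended, in a range of 5.2e-04 to 0.302 over 20 alternatives. ADAM12 was called higher under PD325901 than under BB94 (log2 0.67, limma adjusted p = 0.025), below background on all arrays. That call and the one of NCSTN against BB94 were both lost with centred arrays, without either BB94 array and without PD325901 replicate 1 or 3. BB94, whose targets are metalloproteinases, changed 0 of the 9 transcripts by the limma test, where 1.58% of all genes were called. At an unadjusted p under 0.05, 0 were higher and 1 lower. With controls 3 and 4 alone, 1 was called lower.

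To place the members among other genes, the nearest profiles were sought for the receptor and the ephrin with the highest mean, EPHA2 and EFNB2. Likeness was the root mean square difference of the 9 values, each taken from the control mean of its gene, among 1745 genes with a mean of at least 6 and a deviation of at least 0.5. Nearest to EPHA2 were HAS2, a hyaluronan synthase gene (difference 0.16), UBASH3B, a tyrosine phosphatase gene (0.16), and LAMB1, a laminin subunit gene (0.19). Their log2 changes under PD325901 were -2.94, -2.70 and -2.78. HAS2, with a control mean of 8.46, lay below background on the PD325901 arrays, so its -2.94 is not a measured size. Nearest to EFNB2 were PMEPA1, which encodes an inhibitor of TGF-beta signalling (0.15), and ALOX5AP, which encodes the activating protein of 5-lipoxygenase (0.15). Both had positive log2 changes under BB94, 0.88 and 1.06, and negative ones under PD325901, -0.94 and -0.74. ALOX5AP, with a control mean of 7.15, lay below background on PD325901 replicates 1 and 3, so the size of its fall is uncertain. The likeness follows from 9 arrays that fall into 3 groups, and it is a description.

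**Figure D5:**
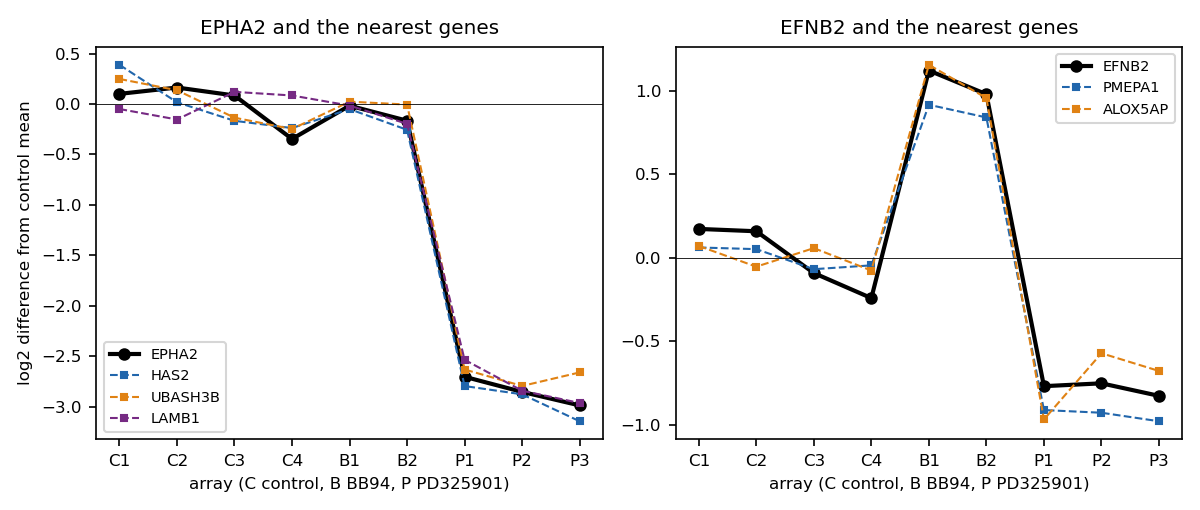
Log2 difference from the control mean on each of the 9 arrays for EPHA2 (left) and EFNB2 (right) in black, with the 3 nearest genes of EPHA2 and the 2 nearest of EFNB2. Lines join arrays only to guide the eye. EPHA2 and its neighbours lie between -2.54 and -3.15 in the PD325901 arrays, where HAS2 is below background.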

How the data were processed

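RNA from 9 MDA-MB231 cultures was hybridised to Affymetrix PrimeView arrays. The authors deposited log2 values per probe set, from the RMA routine of the R package affy, per the labels and the series design text. That routine subtracts background, quantile-normalizes probes across arrays and combines probes into one value per probe set. Versions and genome build are not given in the sources used here. Values were used as deposited, with array medians from 6.05 to 6.34. Of 49395 probe sets, 102 controls were left out, 44988 had 1 gene symbol, 1832 several and 2473 none. No symbol needed an update through RefSeq.

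Groups came from the sample titles. limma 3.58.1 in R 4.3.3 (lmFit, eBayes, two-sided, 6 residual degrees of freedom) was fitted on all 9 arrays with a coefficient per group, with Benjamini-Hochberg adjustment across the 18132 genes. The same was done over all probe sets. The procedure was tested on simulated data. Arrays carry no read depth, and their number limits the precision. "At least N-fold" sets the brighter mean against the mean of the higher of background and signal per array. Quantile normalization can shift genes when many change, so centring was tried.

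Named genes were the 10 members, the called members with the 3 largest changes of each gene list in each comparison, and the 3 nearest genes of EPHA2 and EFNB2. One of the latter is not reported here. The members and lists were chosen with earlier results of these data known. The alternatives are the mean of probe sets, no collapse, a filter at a mean of 6, trend and robust settings, array weights, centring, cyclic loess, both groups alone, the replicate block and each replicate left out. Pairs of control replicates alone were added after the data were seen.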

Additional observations from a re-analysis of the deposited data

Results flagged for a closer look

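Among the values of the 13 family genes followed here, EPHA2 in control replicate 4, at 10.92, stood apart from the other 3 controls, with a gap of 0.845 of the whole range of the group. That passes Dixon's limit for 4 samples, as chance alone does in about 1 in 20 groups, and 1 of 13 groups passed. Without that array the change of EPHA2 under PD325901 was -2.96, against -2.85 with it. Its BB94 change, -0.09 with the array, was -0.21 without it and not called either way.

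The effects of both inhibitors differed by their direct limma comparison for 8 of the 13 genes, of which 4 are members. PD325901 minus BB94 was -2.76 for EPHA2, 0.43 for EPHA4, 1.46 for EFNA1 and -1.83 for EFNB2, and 1.60 for EFNB3, 1.14 for EFNA3, 0.75 for EFNA4 and 0.40 for EFNA5. By the same test 31.2% of all genes differed, 21.0% higher and 10.2% lower under PD325901. The 4 genes outside the members were picked with their values known, so 8 of 13 cannot be set against that share. Of all 21 measured family genes, 8 were higher and 2 lower under PD325901 than under BB94. Of the 8, 2 were below background on every array, so no fold is given for them. These were EPHA5 (log2 1.39, limma adjusted p = 3.0e-04) and EPHA7 (log2 0.73, limma adjusted p = 0.0083). EFNB2 was the one for which both inhibitors were also called against control, in opposite directions.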

How the results depend on the processing

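The median log2 change of all genes under PD325901 was 0.083 as deposited, -0.17 with arrays centred on their medians and -0.006 with cyclic loess. EPHA2, EFNA1 and EFNB2 under PD325901, and EFNB2 under BB94, kept direction and call under the 20 alternatives run. Some of these cannot alter the log2 change and bear on the call only. They are no collapse, the filter, trend and robust settings, both groups alone and leaving out an array of the group not compared. Members called higher under PD325901 went from 2 to 1 with the mean of probe sets. Members called lower went from 2 to 4 with centring and with cyclic loess, which added EPHB6 (-0.42 and -0.31) and EFNB1 (-0.38 and -0.34). Members higher under PD325901 than under BB94 went from 2 to 1 with the mean of probe sets, centring and cyclic loess, and ran from 1 to 3 with one array left out.

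Changes not called in the deposited values turned sign as follows. EPHA1 under PD325901 was -0.087 with the mean of probe sets, -0.21 centred, -0.056 with cyclic loess, -0.036 with the replicate block and -0.149 with controls 1 and 2 alone, and ran from -0.036 to 0.193 with one array left out. EPHA4 under PD325901 was -0.056 centred and -0.028 with cyclic loess. Under BB94, controls 3 and 4 alone gave 0.005 for EPHA1, 0.04 for EPHA2 and 0.034 for EPHB3. The mean of probe sets gave -0.095 for EFNA1, -0.024 for EFNB3 and 0.019 for EFNA5. EFNB3 was also -0.047 with array weights, -0.06 with the replicate block and -0.046 with controls 1 and 2 alone. With one array left out, BB94 changes ran from -0.007 to 0.167 for EFNA1, -0.105 to 0.11 for EFNB3, -0.298 to 0.054 for EFNA4 and -0.21 to 0.002 for EPHB6. For PD325901 against BB94, centring gave -0.098 for EPHA1, -0.075 for EPHB4 and -0.116 for EFNB1, and cyclic loess -0.058 for EFNB1. Without one array these ran from -0.002 to 0.422 for EFNB1 and from -0.172 to 0.04 for EPHB6. Calls were gained here by EFNB1 without BB94 replicate 1 (0.422, adjusted p = 0.0287) and by EPHB6 with centring (-0.392, adjusted p = 0.0439). The causes were not tested.

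Over all genes, centring turned the 4142 higher and 2223 lower under PD325901 into 2353 and 5076, and the 3804 and 1848 of PD325901 against BB94 into 1990 and 5025. The 89 higher and 197 lower under BB94 became 148 and 321 with array weights, 46 and 94 with both groups alone, 51 and 110 with the replicate block and 859 and 774 with controls 3 and 4 alone (79 and 233 with controls 1 and 2 alone), and 149 were higher with cyclic loess. With one array left out they ran from 27 (without BB94 replicate 1) to 143 (without control replicate 1) higher and from 27 (without BB94 replicate 2) to 224 lower. PD325901 against BB94 ran from 2398 (without BB94 replicate 2) to 4336 higher and from 1153 (without BB94 replicate 1) to 2077 lower. Same-numbered arrays did not deviate together (correlations -0.186 to 0.122), so the numbers are not shown to pair samples. Deviations of only 2 BB94 arrays from their mean mirror each other. Control replicate 1 thus gave -0.186 with BB94 replicate 1 and 0.186 with replicate 2, and the check cannot settle pairing. The replicate block changed no member's call against control. Against BB94 it ended that of EPHA4 (limma adjusted p = 0.065) and gave one to EPHB3 (0.0278). Signal near background limits EPHA1, EPHB3, EPHB6 and EFNB1.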

Other observations

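The 3 A-class ephrin genes EFNA4, EFNA3 and EFNA1 follow each other on chromosome 1 in the RefSeq gene order, and all 3 rose under PD325901. Their neighbours were looked up after these values were seen. SLC50A1, a sugar transporter gene that follows EFNA1 among the measured genes, rose as well (log2 0.76, limma adjusted p = 2.8e-05). Beyond it, DPM3 (0.34, adjusted p = 0.164) and KRTCAP2 (0.14, adjusted p = 0.237) did not pass the limma test. On the other side ADAM15, a membrane metalloproteinase gene, had a change of -0.11 (adjusted p = 0.659). DCST1 had 0.22 (0.186) and DCST2 0.19 (0.375), but their control means of 3.46 and 4.93 lay below background. ZBTB7B, with a control mean of 6.33 near background, was called (0.65, adjusted p = 0.0054). Of all genes, 22.8% were called higher under PD325901. RefSeq also lists a joint transcript of EFNA4 and EFNA3, so signal of those 2 genes may be shared. Under BB94 none of these genes passed the limma test (adjusted p from 0.257 to 0.985).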
